A study of Mus musculus with 8 samples.

Results

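Open chromatin was compared between double knockout and wild type livers of fasted mice, with 2 libraries in each group out of 8 libraries in the series. The double knockout mice lacked Cpt2 in the liver and Ppara in the whole body (genotype Cpt2 L-/- ; Ppara -/-). All mice were 9-week-old males of strain C57BL/6, kept on a standard chow and then fasted for 24 h. Libraries were made from flash-frozen whole liver by ATAC-seq, in which a transposase cuts and tags accessible DNA, so that each stretch of open chromatin appears as a peak of sequenced fragments. The other 4 libraries, 2 of the Cpt2 liver knockout and 2 of the Ppara knockout, took no part in the rule for one-sided regions, although the consensus list was built over all 8 libraries, and their values are given beside the regions found. The Cre line behind the liver knockout, and whether wild type mice carried floxed alleles, are not given in the sources used here. The labels number the replicates but do not say that each library is a separate animal. A p-value then measures only the spread between libraries, which may be technical.

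Between meals the liver draws on fatty acids released from fat. They enter the mitochondrion through the carnitine shuttle, whose last enzyme is carnitine palmitoyltransferase 2, the product of Cpt2, and are burned there by beta-oxidation or turned into ketone bodies. PPARα, the product of Ppara, is a nuclear receptor that binds fatty acids. Together with its partner RXR it recognises a direct repeat of the letters AGGTCA with 1 spacer base, and during fasting it drives genes of fatty acid uptake, carnitine transport, peroxisomal and mitochondrial oxidation, omega-oxidation and ketogenesis.

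Of the 49587 regions that the study's consensus list holds for all 8 libraries, 40851 had a peak in at least 1 of the 4 libraries compared here, and these were tested. A library called a region if at least 1 bp of the region lay under one of its peaks. Regions called in both wild type libraries and neither double knockout library numbered 6418 (15.7%), and 596 (1.46%) had the reverse pattern. Open chromatin at the starts of several fatty acid genes was among the regions called only in wild type. The bases just before 4 such starts are printed here, from Acot1 and Acaa1b, which were called in neither Ppara knockout library either, and from Fabp1 and Mogat1, picked after their values were seen because they hold a match to the receptor's repeat. The start of Slc22a5 is added because its peak was present in all 4 libraries but showed the largest difference in rank toward wild type. Each sequence is the 250 bases before a RefSeq gene start (GRCm38.p6, which is mm10), read 5′ to 3′ along the gene. Capitals mark the repeat, AGGTCA followed by any base and AGGTCA again, on either strand with up to 2 mismatches among its 12 fixed letters, and every exact AGGTCA on either strand.
Fabp1: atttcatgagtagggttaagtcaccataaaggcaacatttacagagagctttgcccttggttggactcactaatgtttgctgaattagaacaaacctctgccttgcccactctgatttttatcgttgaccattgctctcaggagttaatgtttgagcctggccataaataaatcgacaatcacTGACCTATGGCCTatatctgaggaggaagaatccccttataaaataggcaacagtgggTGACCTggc
Mogat1: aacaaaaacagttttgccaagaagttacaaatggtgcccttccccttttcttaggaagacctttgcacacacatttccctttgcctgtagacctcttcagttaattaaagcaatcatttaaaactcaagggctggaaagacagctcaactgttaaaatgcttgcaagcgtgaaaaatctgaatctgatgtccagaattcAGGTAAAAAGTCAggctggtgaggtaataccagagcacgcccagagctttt
Acot1: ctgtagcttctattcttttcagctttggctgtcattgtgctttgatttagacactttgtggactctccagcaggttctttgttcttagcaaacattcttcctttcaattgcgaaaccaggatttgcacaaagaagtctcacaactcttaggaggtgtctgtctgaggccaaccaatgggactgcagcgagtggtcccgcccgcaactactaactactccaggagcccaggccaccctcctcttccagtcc
Acaa1b: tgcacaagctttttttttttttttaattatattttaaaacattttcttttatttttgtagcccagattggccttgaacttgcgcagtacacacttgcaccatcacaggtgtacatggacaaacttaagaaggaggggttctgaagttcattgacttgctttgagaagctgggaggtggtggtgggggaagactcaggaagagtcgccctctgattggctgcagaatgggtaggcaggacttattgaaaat
Slc22a5: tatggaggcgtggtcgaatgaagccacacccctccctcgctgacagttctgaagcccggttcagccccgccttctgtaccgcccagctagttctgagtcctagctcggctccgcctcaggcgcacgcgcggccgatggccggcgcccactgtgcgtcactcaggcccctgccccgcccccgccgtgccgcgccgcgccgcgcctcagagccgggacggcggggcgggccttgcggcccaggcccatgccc
These stretches lie at chr6:71199629-71199878 (plus strand), chr1:78510810-78511059 (plus), chr12:84009252-84009501 (plus), chr9:119157094-119157343 (minus) and chr11:53891704-53891953 (minus). The Fabp1 stretch held TGACCTATGGCCT, which differs from the repeat at 1 base, at bases 184 to 196, and an exact AGGTCA on the reverse strand nearer the start. The Mogat1 stretch held AGGTAAAAAGTCA, with 2 mismatches to the repeat, at bases 200 to 212. No match appeared in the other stretches, which says only that these letters are not in those 250 bases. A start window, as counted here, runs from 250 bases before a RefSeq gene start to 50 bases after it. A repeat with up to 2 mismatches occurred in 2.80% of all 21263 start windows of protein-coding genes. It occurred in 2.73% of the 1099 windows that met a region called only in wild type. It occurred in 1.72% of the 2097 windows at shared regions ranked higher in wild type and in 3.39% of the 649 at shared regions ranked higher in double knockout. An exact repeat stood in 9 windows in all, 1 of them at a region called only in wild type (0.0910% of those windows, beside 0.0423% of all). The 10 windows at regions called only in double knockout held the repeat with up to 2 mismatches in 2 cases and a single AGGTCA in 6. A single AGGTCA stood in 12.8% of all windows and in 10.6% of those called only in wild type. The repeat with up to 2 mismatches and the single AGGTCA thus had no higher share at gene starts called only in wild type than at all gene starts.

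The peak lists themselves differed between the groups. There were 28733 and 36141 peaks in wild type against 22715 and 18132 in double knockout. The groups did not overlap, and the double knockout mean was 0.63 of the wild type mean (difference of -12013.5 peaks, two-sided exact permutation p = 0.333, the smallest that 2 against 2 libraries can give). The peaks covered 12.3 and 15.5 Mb in wild type and 8.79 and 6.62 Mb in double knockout. Read totals are not given, so a missing peak means that the library's signal stayed under the authors' threshold, not that the DNA was closed. A number in the authors' peak names was 441 and 443 in wild type, 6832 and 6831 in double knockout, 6834 and 6833 in Ppara knockout, and 446 and 4717 in Cpt2 knockout. The labels do not say what it stands for, and whatever it marks cannot be told apart from the difference between the groups.

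Because a shorter list lowers the number of calls, the comparison was repeated with the strongest 18132 peaks of each library, ordered by the deposited −log10 p and called the equal-number lists. Of 25742 regions tested there, 1662 (6.46%) were called only in wild type and 1528 (5.94%) only in double knockout. Lists of equal length bring both counts close together by construction, so this near balance is no result. Of the 6418 and 596 regions, 1213 and 449 kept their class. Of the 1528 regions, 1079 had a peak in at least 1 wild type library when all peaks were used. With all peaks, 14216 regions (34.8%) were called in all 4 libraries, and 10187 (24.9%) were called in 1 wild type library alone. No test was made per region: the files used give no counts, and an exact permutation test of 2 against 2 libraries cannot go below 0.333.

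The 12 highest ranked regions called only in wild type, among those that stay so in the equal-number lists, had strong peaks in both wild type libraries. At an end of Cyp2j5, a cytochrome P450 of the liver that oxidises polyunsaturated fatty acids, the region chr4:96665007-96665467 had a −log10 p of 80.4 and 139 in wild type. It had 111 and 77.1 in Cpt2 knockout and no peak in the Ppara knockout or double knockout libraries. A region 18529 bp from Pank3, which encodes a pantothenate kinase of coenzyme A synthesis, had 80.9 and 136 in wild type. It had 92.6 and 92.1 in Cpt2 knockout, 12.6 in Ppara knockout 1 and no peak in the other three. A region inside Ppara itself (chr15:85774288-85774815) had 62.1 and 116 in wild type, 117 and 98.2 in Cpt2 knockout and no peak in the remaining 4 libraries. The region chr8:10911309-10911802 lay 72879 bp from Irs2, which encodes an insulin receptor substrate. It had 54.0 and 148 in wild type, 115 and 89.8 in Cpt2 knockout and no peak elsewhere. The other 8 were nearest to Ints14, Dio3, F3, Trim80, Pknox2, Ahi1, Smoc1 and Elmod3. All 12 were called in both Cpt2 knockout libraries, and 2 of the 12 in each Ppara knockout library. Of all 6418 regions called only in wild type, 80.0% were called in both Cpt2 knockout libraries. Ppara knockout 1 and 2 called 21.1% and 17.4% of them.

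**Figure D1:**
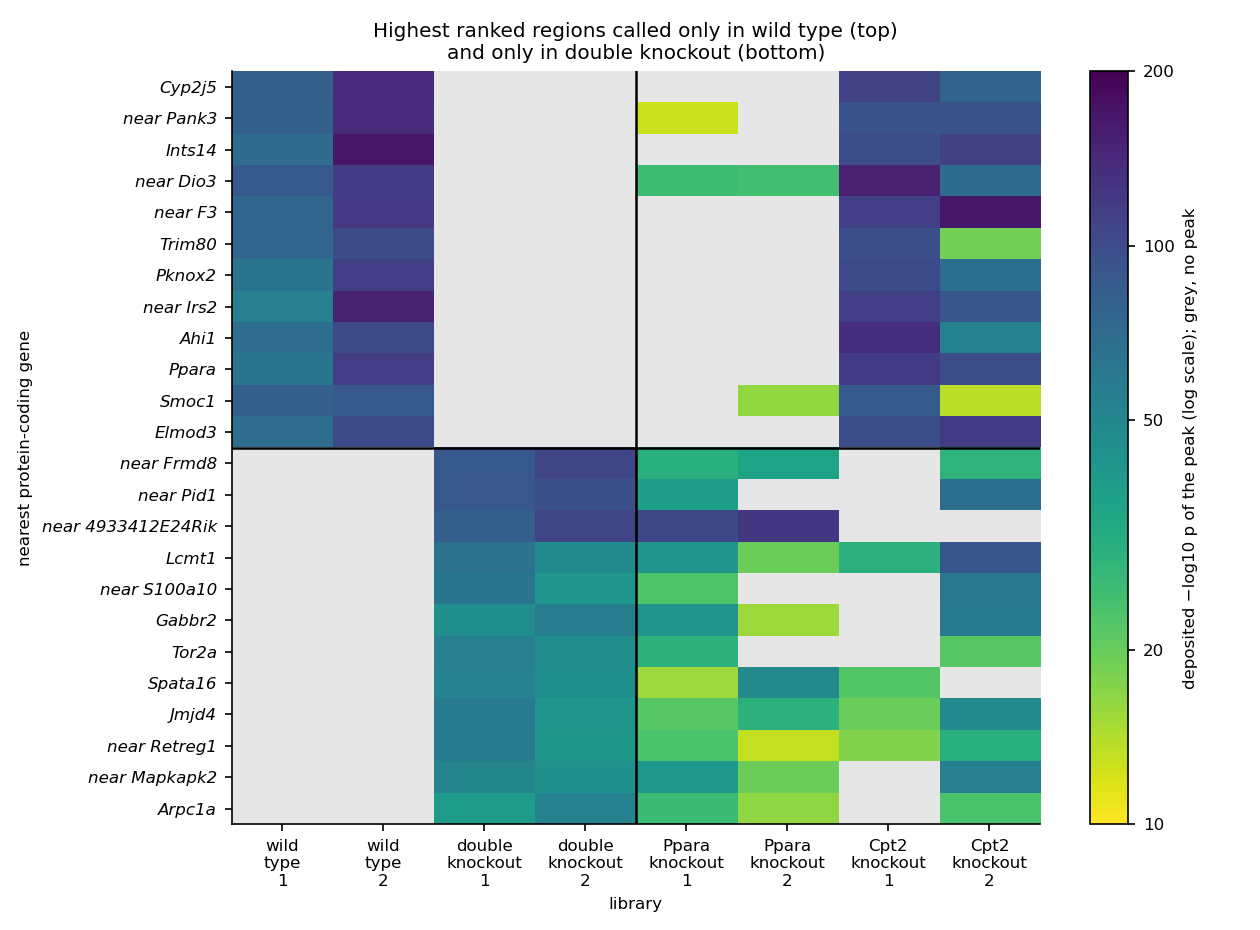
Deposited −log10 p of the peak (colour, log scale) at the 12 highest ranked regions called only in wild type (top rows) and the 12 called only in double knockout (bottom rows), in each of the 8 libraries (columns). Grey cells have no peak; the wild type regions were all called in both Cpt2 knockout libraries, and the double knockout regions were called in 12 and 9 of 12 cases in the Ppara knockout libraries, in 10 of 12 in Cpt2 knockout 2 and in 4 of 12 in Cpt2 knockout 1.

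Gene lists of the fasting response were read through the nearest protein-coding gene of each region. A gene end below means either end of the gene, the start or the far end. In the 9 lists of fatty acid and fasting genes, 106 of 495 regions (21.4%) were called only in wild type and 4 (0.808%) only in double knockout. Over all regions the shares were 15.7% and 1.46%, and in the other 11 pathway lists together they were 18.9% and 1.36%. In the equal-number lists the fatty acid and fasting lists had 12.8% only in wild type and 5.97% only in double knockout, beside 6.46% and 5.94% of all regions. Of the regions of the fatty acid and fasting lists, 185 were called in all 4 libraries. By the rank rule given below, 56 of these (30.3%) ranked higher in double knockout and 43 (23.2%) higher in wild type. Over all shared regions the shares were 21.1% and 22.3%. The lists did not behave alike. Omega-oxidation and acyl-CoA thioesterases alone gave 20 of the 106 regions, and PPAR receptors and partners gave 23 of the 56. The shares called only in wild type ran from 9.52% for mitochondrial beta-oxidation to 45.5% for omega-oxidation and acyl-CoA thioesterases.

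**Figure D2:**
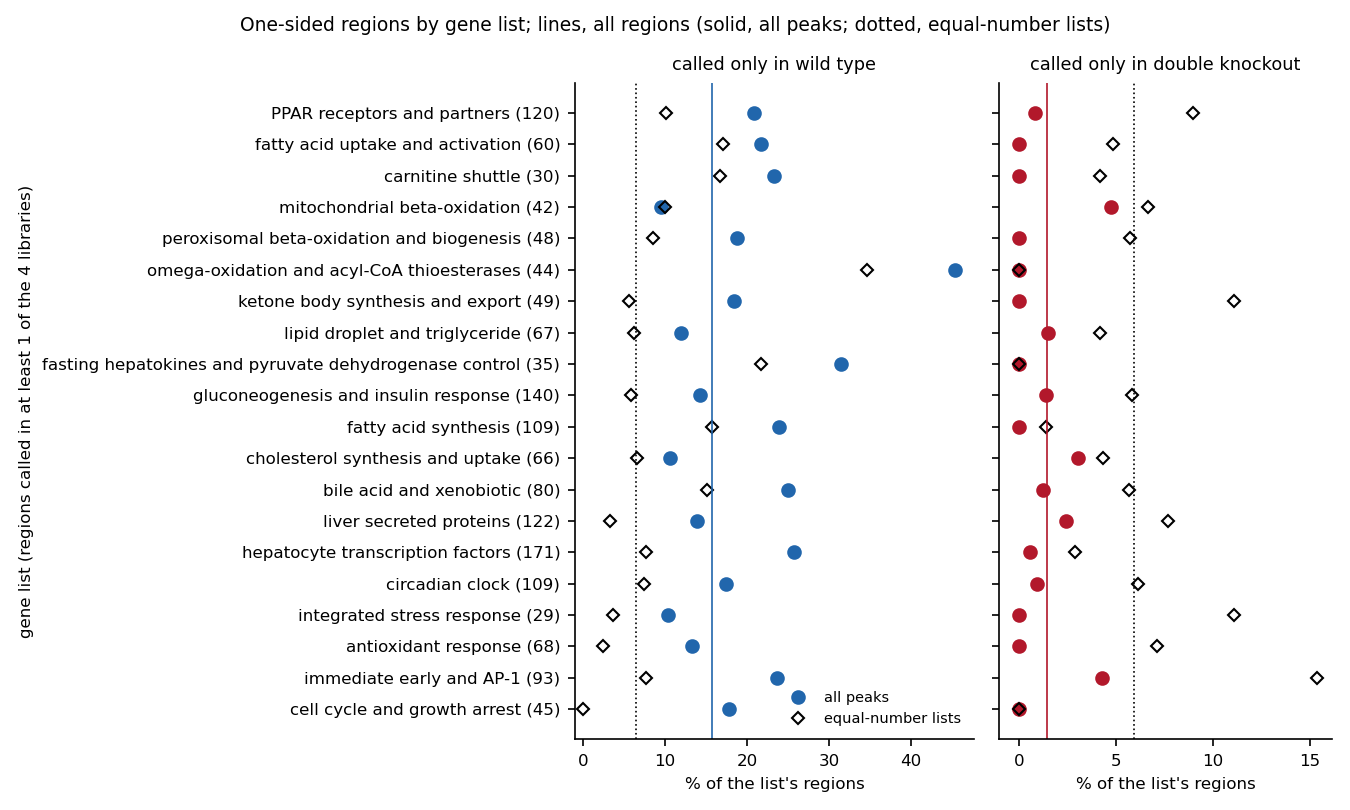
Percentage of each list's regions called only in wild type (left) and only in double knockout (right), with all peaks (filled circles) and in equal-number lists (open diamonds). The vertical lines mark all regions tested, at 15.7% and 1.46% with all peaks (solid) and 6.46% and 5.94% in equal-number lists (dotted); omega-oxidation and thioesterases lie furthest right of the lines on the left panel.

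Omega-oxidation and acyl-CoA thioesterase genes had the largest share, 20 of 44 regions spread over 10 genes, and none only in double knockout. In equal-number lists it was 9 of 26 regions (34.6%). Of the list's 44 regions, wild type libraries called 70.5% and 95.5% and double knockout libraries 22.7% and 18.2%, while over all regions they called 69.0%, 87.1%, 54.0% and 43.1% in the same order. The Cyp4a genes, whose P450 enzymes hydroxylate the far end of fatty acids, held 10 of these regions among 17 tested. All 10 were called in both Cpt2 knockout libraries and in neither Ppara knockout library. Of all 6418 regions called only in wild type, 52.7% had this pattern. At Cyp4a31, chr4:115555458-115556003 had a −log10 p of 40.0 and 65.1 in wild type and 70.7 and 101 in Cpt2 knockout. At the end of Cyp4a10, chr4:115533948-115535267 had 16.9 and 30.8 in wild type and 51.2 and 72.5 in Cpt2 knockout. At the end of Cyp4a14 the values of chr4:115495871-115496389 were 16.3 and 32.3, and 36.7 and 42.1. Each of these Cyp4a regions was stronger in both Cpt2 knockout libraries than in both wild type libraries, on a scale that depends on depth.

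The Acot1 to Acot6 cluster, whose thioesterases release free fatty acids from their CoA esters, held the other 10 regions, again among 17. All were called in both Cpt2 knockout libraries and 7 of 10 in neither Ppara knockout library. Of all regions called only in wild type these shares were 80.0% and 69.6%, so the second count was near that of the class. At the start of Acot1, the sequence printed above, chr12:84009249-84009812 had a −log10 p of 23.8 and 98.3 in wild type and 119 and 58.5 in Cpt2 knockout. The strongest region by rank lay outside Acot1 at chr12:84020465-84020958, with 52.8 and 59.9 in wild type, 69.2 and 33.0 in Cpt2 knockout and 14.9 in Ppara knockout 1. At an end of Acot3, chr12:84053138-84053549 had 21.6 and 59.1 in wild type and 51.7 and 64.9 in Cpt2 knockout. Both families are runs of near-identical neighbouring genes, and how reads that fit several copies were handled is not given in the sources used here, so values of single copies are uncertain.

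Fasting hepatokines and pyruvate dehydrogenase control had 11 of 35 regions (31.4%) called only in wild type, in 9 genes, and 5 of 23 (21.7%) in equal-number lists. None was called only in double knockout. Fgf21, a hormone that the fasting liver secretes, had 2 of its 4 regions in this class. At its gene end, chr7:45616280-45616675 had a −log10 p of 20.9 and 38.3 in wild type and 35.0 and 23.8 in Cpt2 knockout. For Pdk4, a kinase that switches off pyruvate dehydrogenase and so spares glucose, the region chr6:5509233-5510158 lay 12955 bp from the gene. It had 22.5 and 91.2 in wild type and 60.8 and 102 in Cpt2 knockout. None of these regions had a peak in the Ppara knockout or double knockout libraries. At Angptl4, an inhibitor of lipoprotein lipase, one gene-end region was called only in wild type (16.5 and 37.0) and the other in all 4 libraries (21.3 and 38.8 in wild type, 24.5 and 14.6 in double knockout).

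Genes of fatty acid uptake and activation had 13 of 60 regions (21.7%) called only in wild type, 7 of 41 (17.1%) in equal-number lists, and none only in double knockout. Fabp1, the abundant fatty acid binding protein of the liver, contributed 3 of its 6 regions. At its start, chr6:71199587-71200088 had a −log10 p of 14.2 and 67.6 in wild type, 54.3 and 42.4 in Cpt2 knockout, and no peak in the other 4 libraries. The wild type libraries were far apart there. A region upstream, chr6:71185019-71185714, had 30.3 and 88.2 in wild type and 38.0 and 98.6 in Cpt2 knockout. Acsl1, which activates long-chain fatty acids to acyl-CoA, had 6 of 17 regions in this class, and its regions differed in direction. The region chr8:46404114-46404589, outside genes and 66448 bp from Acsl1, had 41.2 and 88.7 in wild type and none in double knockout. Inside the gene, chr8:46529488-46530019 went the other way, with 17.2 and 18.3 in wild type and 81.9 and 33.0 in double knockout, 78.5 percentile points higher in rank. For Cd36, a fatty acid transporter, none of 5 regions was in either class.

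Carnitine shuttle genes had 7 of 30 regions (23.3%) called only in wild type, 4 of 24 (16.7%) in equal-number lists. The start of Slc22a5, the carnitine transporter of the cell surface, kept its peak (chr11:53891125-53892178) at a −log10 p of 127 and 143 in wild type but 19.2 and 9.2 in double knockout. Cpt2 knockout had 124 and 105 there and Ppara knockout 19.9 and 18.0. Upstream of it, chr11:53910900-53911510 had 44.1 and 85.7 in wild type and no peak in double knockout. At Cpt1a, the outer-membrane palmitoyltransferase that limits entry of fatty acids, 2 of 8 regions were called only in wild type, while 4 were called in all 4 libraries. At its gene end the values were 49.1 and 69.1 in wild type and 24.1 and 17.6 in double knockout. Over all 14216 regions called in all 4 libraries the median −log10 p was 49.98 and 78 in wild type and 30.22 and 23.76 in double knockout. A lower value in double knockout at a shared region is thus not by itself specific to its gene. By the rank rule given below, 1 shared region of Cpt1a ranked higher in wild type and 1 higher in double knockout. At Cpt2 itself the region at the gene's end was called in all 8 libraries, and a region inside the gene (chr4:107921928-107922335) had 36.8 and 67.1 in wild type, 83.3 and 43.2 in Cpt2 knockout and no peak in the Ppara knockout or double knockout libraries. A peak call cannot show whether an exon was deleted, so neither targeted gene checks the labels here.

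Mitochondrial beta-oxidation genes had 4 of 42 regions (9.52%) called only in wild type and 2 (4.76%) only in double knockout, below the 15.7% and above the 1.46% of all regions. In equal-number lists these were 3 of 30 (10.0%) and 2 (6.67%), beside 6.46% and 5.94%. Of their 14 regions called in all 4 libraries, 7 ranked higher in wild type and 1 higher in double knockout, beside 22.3% and 21.1% of all shared regions. At the gene end of Echs1, the enoyl-CoA hydratase of the pathway, chr7:140115492-140116831 had a −log10 p of 103 and 126 in wild type and 38.2 and 25.2 in double knockout. At Acaa2, the thiolase, the gene-end values were 128 and 130.2 against 31.9 and 28.4. Inside Acadm, the medium-chain acyl-CoA dehydrogenase, chr3:153932427-153932838 had no peak in wild type and 25.7 and 60.8 in double knockout, with 26.4 in Cpt2 knockout 2.

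Peroxisomal genes had 9 of 48 regions (18.8%) called only in wild type and none only in double knockout, but 3 of 35 (8.57%) in equal-number lists. Acaa1b, a peroxisomal thiolase, had 3 of them, and the one at its start (chr9:119156848-119157351) had a −log10 p of 29.7 and 91.1 in wild type and 85.4 and 76.8 in Cpt2 knockout. At the start of Ech1, which isomerises unsaturated acyl-CoA, the region had 61.6 and 61.7 in wild type, 61.6 and 59.3 in Cpt2 knockout, a weak peak in Ppara knockout 1 and none in the other three. Both starts were called in neither double knockout library. At Ehhadh, the bifunctional enzyme of peroxisomal oxidation, the gene-end peak stayed in all 4 libraries, at 66.1 and 83.7 in wild type and 30.6 and 15.6 in double knockout. Values of shared regions were lower in double knockout in general, as given above for Cpt1a. By the rank rule given below, this Ehhadh region ranked higher in wild type.

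Ketone body genes had 9 of 49 regions (18.4%) called only in wild type, and in equal-number lists 2 of 36 (5.56%), beside 4 (11.1%) only in double knockout. Lipid droplet and triglyceride genes had 8 of 67 regions (11.9%) only in wild type and 1 only in double knockout, the latter 26392 bp from Hilpda. The start of Mogat1, a monoacylglycerol acyltransferase (chr1:78510913-78511292), was called only in wild type and had 17.8 and 25.9 in wild type and 45.1 and 60.4 in Cpt2 knockout. Plin2, a coat protein of the lipid droplet, had none of its 6 regions in either class.

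Among the receptors and their partners, 25 of 120 regions (20.8%) were called only in wild type and 1 (0.833%) only in double knockout. Over all regions the shares were 15.7% and 1.46%. In equal-number lists the imbalance was small, with 9 of 89 (10.1%) and 8 (8.99%), beside 6.46% and 5.94% of all regions. With all peaks, Ppara had 8 of its 22 regions called only in wild type and none only in double knockout, but 2 and 1 in equal-number lists. Of its 8 shared regions, 4 ranked higher in wild type and 2 higher in double knockout. At the start of Ppara, chr15:85734711-85736214 had a −log10 p of 108 and 119.5 in wild type and 32.7 and 32.6 in double knockout. Rxra, the receptor's partner, had 1 of 17 regions called only in wild type, and 8 of its 12 shared regions ranked higher in double knockout. The list as a whole had 23 of 50 shared regions (46.0%) higher in double knockout and 7 (14.0%) higher in wild type. Over all shared regions these shares were 21.1% and 22.3%. A region near Pparg, the receptor of fat cells, was called only in double knockout (22.1 and 16.4), with 45.1 in Cpt2 knockout 2.

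Outside the fasting lists, fatty acid synthesis genes had 26 of 109 regions (23.9%) called only in wild type and none only in double knockout, and 11 of 70 (15.7%) in equal-number lists. Srebf1, which encodes the transcription factor of lipogenesis, had 3 of 6 regions in this class, and at its gene end the values were 13.4 and 24.8. Near Thrsp, a lipogenic protein, chr7:97418746-97419105 had a −log10 p of 46.2 and 62.5 in wild type. Bile acid and xenobiotic genes had 20 of 80 regions (25.0%), and 8 of 53 (15.1%) in equal-number lists. The start of Abcb11, the bile salt export pump, was among them, at 40.5 and 58.4. Hepatocyte transcription factors had 44 of 171 regions (25.7%) with all peaks but 8 of 104 (7.69%) in equal-number lists, close to the 6.46% of all regions. Cebpb and Onecut1 had the most, with 8 of 16 and 8 of 14 regions, of which 3 and 0 were called only in wild type in equal-number lists.

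Immediate early and AP-1 genes, whose products respond within minutes to growth and stress signals, had 22 of 93 regions (23.7%) only in wild type and 4 (4.30%) only in double knockout, nearest to Ier3, Jun, Klf6 and Myc. In equal-number lists it was 5 of 65 (7.69%) only in wild type and 10 (15.4%) only in double knockout, beside 6.46% and 5.94% of all regions. With all peaks, 35 of the list's regions lay inside their gene or within 5 kb of it. Of these, 12 (34.3%) were called only in wild type and none only in double knockout. Over all regions that near to a gene, 15.4% were called only in wild type. The 4 regions called only in double knockout thus lay farther than 5 kb from their genes. The region near Klf6 had a −log10 p of 22.4 and 41.2 in double knockout and 16.6 and 39.0 in Cpt2 knockout. All 4 were called in Cpt2 knockout 2, none in either Ppara knockout library. Over all regions the shares with all peaks were 15.7% and 1.46%. Gluconeogenesis and insulin response genes were near this background, with 20 of 140 regions (14.3%) only in wild type and 2 only in double knockout. One of the latter, at an end of Igfbp1, which encodes an insulin-like growth factor binding protein, had 19.3 and 26.1 in double knockout and no peak in the other 6 libraries. Liver secreted proteins had 17 of 122 (13.9%) and 3 (2.46%), cholesterol synthesis 7 of 66 (10.6%) and 2 (3.03%), the clock 19 of 109 (17.4%) and 1, and antioxidant response 9 of 68 (13.2%) and none. In equal-number lists the direction turned for liver secreted proteins, with 3 of 91 only in wild type and 7 (7.69%) only in double knockout, and for antioxidant response, with 1 of 42 (2.38%) and 3 (7.14%). The integrated stress response had 3 of 29 (10.3%) and none, and in equal-number lists 1 of 27 (3.70%) and 3 (11.1%). Clock genes had 6 of 81 (7.41%) and 5 (6.17%) there, cholesterol synthesis 3 of 46 (6.52%) and 2 (4.35%), and gluconeogenesis 6 of 103 (5.83%) in each direction. With all peaks, cell cycle genes had 8 of 45 (17.8%) only in wild type, and 0 of 33 in equal-number lists.

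Cell type markers were read the same way, since whole liver holds several cell types. Over all regions tested, wild type libraries called 69.0% and 87.1%, double knockout libraries 54.0% and 43.1% and Ppara knockout libraries 46.8% and 41.5%. Hepatocyte markers had 60 regions, of which wild type libraries called 71.7% and 80.0% and double knockout libraries 60.0% and 66.7%. Cholangiocyte markers had 16 regions, called at 62.5% and 93.8% in wild type and 18.8% and 6.25% in double knockout, and 6 were called only in wild type. These regions lay nearest to 3 of 6 genes, and Sox9 alone held 13 of the 16 and 4 of the 6. Stellate cell markers had 12 regions over 4 of 8 genes, with 6 nearest to Reln. The 12 were called at 58.3% and 66.7% and at 8.33% and 16.7%. Endothelial markers had 32, called at 43.8% and 84.4% and at 28.1% and 31.3%. Macrophage markers had 3 regions over 3 of 8 genes, and other leukocyte markers 7 over 2 of 10 genes. Calls at bile duct, stellate and endothelial cell genes were thus lower in both double knockout libraries than in both wild type libraries. They were below the share over all regions there, but for stellate and endothelial genes also in both wild type libraries, and for bile duct genes in wild type 1. The shares called only in wild type were 15.6% for endothelial, 16.7% for stellate and 37.5% for cholangiocyte genes, beside 15.7% of all regions. In equal-number lists 1 of 13 endothelial regions was called only in wild type and 2 only in double knockout. Cholangiocyte genes had 2 of 7 and 0 there. Calls in the Ppara knockout libraries were 12.5% and 12.5% for cholangiocytes, 8.33% and 16.7% for stellate cells and 21.9% and 18.8% for endothelial cells. Their part in the results was not tested. In whole tissue, fewer cells of a type and less open chromatin per cell cannot be told apart.

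The 12 highest ranked regions called only in double knockout were each called in at least 1 single knockout library as well. The strongest by rank lay inside the noncoding RNA Neat1, which builds nuclear paraspeckles, 9143 bp from Frmd8 (chr19:5841329-5841831). It had a −log10 p of 87.8 and 107 in double knockout, 29.7 and 35.0 in Ppara knockout, 28.3 in Cpt2 knockout 2 and no peak in wild type or Cpt2 knockout 1. The second lay 76146 bp from Pid1, which encodes an adaptor that dampens insulin signalling. It had 88.7 and 95.7 in double knockout, 67.8 in Cpt2 knockout 2 and 37.8 in Ppara knockout 1. The third lay 125045 bp from 4933412E24Rik (chr15:60141663-60142122). It had 81.2 and 106 in double knockout, 104 and 123 in Ppara knockout and no peak in the other 4 libraries. Inside Lcmt1, a methyltransferase that acts on protein phosphatase 2A, the values were 65.1 and 48.4 in double knockout but 89.2 in Cpt2 knockout 2. The others were nearest to S100a10, Gabbr2, Tor2a, Spata16, Jmjd4, Retreg1, Mapkapk2 and Arpc1a. Of the 12, Ppara knockout libraries called 12 and 9, Cpt2 knockout 2 called 10 and Cpt2 knockout 1 called 4. Of all 596 regions called only in double knockout, these libraries called 42.1%, 27.7%, 49.5% and 34.9% in the same order. The Cpt2 knockout libraries carry different numbers in their peak names, 446 and 4717, and the part of this in their difference was not tested. Inside Vwf, which encodes von Willebrand factor of the endothelium, a region had 36.7 and 51.5 in double knockout and 38.1 and 92.6 in Cpt2 knockout. Of the genes, Ctsl, a lysosomal protease, had the most regions called only in double knockout, 3 of 9. In the other, larger class Lpp had 13 of 39 regions and Rbm47 12 of 27, and in equal-number lists these genes had 2 and 3 regions called only in wild type.

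Regions called in all 4 libraries were ranked among themselves by −log10 p within each library, so that every library ranks the same 14216 regions. A region was counted as ranked higher in a group when both its libraries lay above both of the other and the means differed by at least 10 percentile points. By this rule 3174 regions (22.3%) ranked higher in wild type and 2997 (21.1%) higher in double knockout. A further 743 and 674 did not overlap but differed by less. Just inside the threshold lay a region near Sap130 at -10.001 points and just outside it one near Rab5a at -9.978. On the other side these were near Cpsf4l at 10.005 points and near Prr5 at 9.999. Across these regions Spearman's rho was 0.865 between the wild type libraries, 0.78 between the double knockout libraries and 0.603 to 0.676 between groups, a description over regions that share local sequence and width. Every value between groups was below both values within groups.

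**Figure D3:**
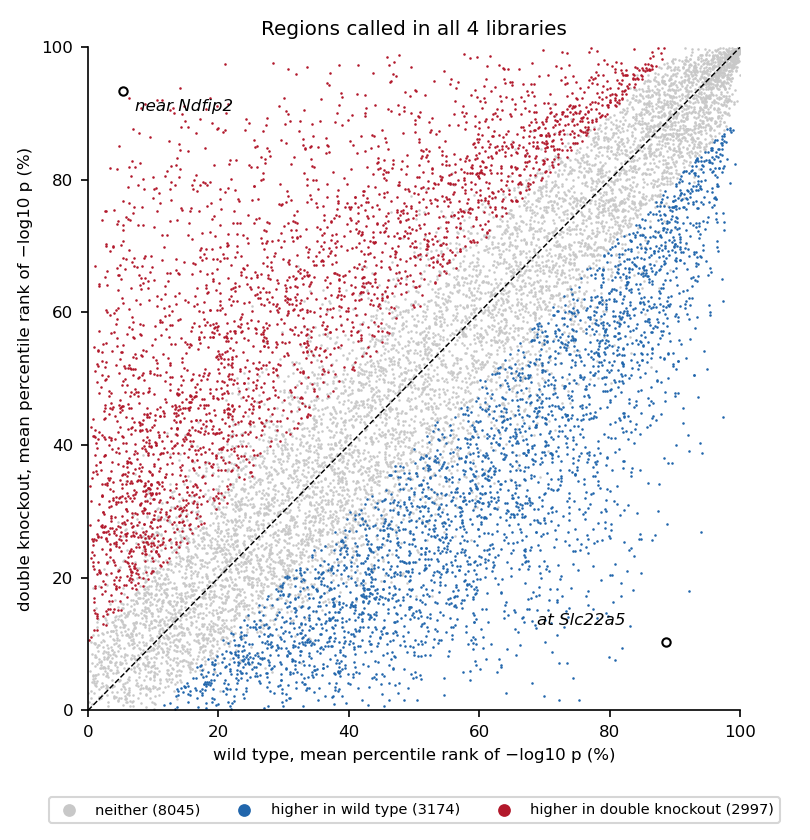
Mean percentile rank of the deposited −log10 p in wild type (x axis) and double knockout (y axis) for the 14216 regions called in all 4 libraries, each point a region. Blue points (3174) ranked higher in wild type and red points (2997) in double knockout without overlap and by at least 10 points; the dashed line marks equal ranks, and open circles mark the furthest region on each side, at Slc22a5 and near Ndfip2.

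The largest difference toward wild type was at the start of Slc22a5, given above, at ranks of 92.3 and 84.8 in wild type and 20.4 and 0.246 in double knockout (difference of -78.2 points). Iffo2, which encodes an intermediate filament family protein, had a region at 92.8 and 91.6 against 28.5 and 7.44. Other large differences toward wild type were nearest to Pomgnt2 (35932 bp away), Cuta, Rdh16f2, Spata13 and Cyb5rl. The largest difference toward double knockout lay near Ndfip2, which encodes an adaptor of Nedd4 ubiquitin ligases, with ranks of 4.6 and 6.08 in wild type and 91.5 and 95.4 in double knockout (difference of 88.1 points). Its −log10 p was 16.9 and 26.4 in wild type, 74.1 and 73.7 in double knockout, 65.4 and 38.4 in Ppara knockout and 52.7 and 131 in Cpt2 knockout. Inside Ksr1, a scaffold of the MAP kinase pathway, the values were 23.7 and 21.1 in wild type, 64.5 and 66.3 in double knockout and 36.9 and 46.3 in Ppara knockout. A region 141948 bp from Ets1, a transcription factor, had 28.2 and 21.3 in wild type. It had 78.5 and 58.8 in double knockout and 26.1 and 22.2 in Ppara knockout. Slc35f5, Patj, Ppp1r9a, Scmh1 and Pde6c were nearest to the others of the 8 largest.

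The classes differed in where they lay. Of all regions tested, 29.1% lay within 1 kb of either end of a protein-coding gene. The share was 23.5% of regions called only in wild type (95% Wilson interval 22.5% to 24.6%) and 7.89% of those called only in double knockout (5.98% to 10.3%). In equal-number lists these shares were 25.6% and 15.5%, beside 34.7% of all regions. Among shared regions, 61.2% of those ranked higher in wild type and 25.1% of those ranked higher in double knockout lay near a gene end, beside 46.0% of all shared ones. A RefSeq start window was met by 8 of 574 regions called only in double knockout (1.39%), against 946 of 6247 (15.1%) called only in wild type and 8463 of 39595 (21.4%) of all tested, on the chromosomes that the window table covers. In equal-number lists the share was 122 of 1480 (8.24%) for double knockout and 18.8% for wild type, beside 28.0% of all. Regions ranked higher in wild type were also wider, at a median of 698 bp against 482 bp for those higher in double knockout. The intervals cover counting error only, and neighbouring regions are not independent.

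**Figure D4:**
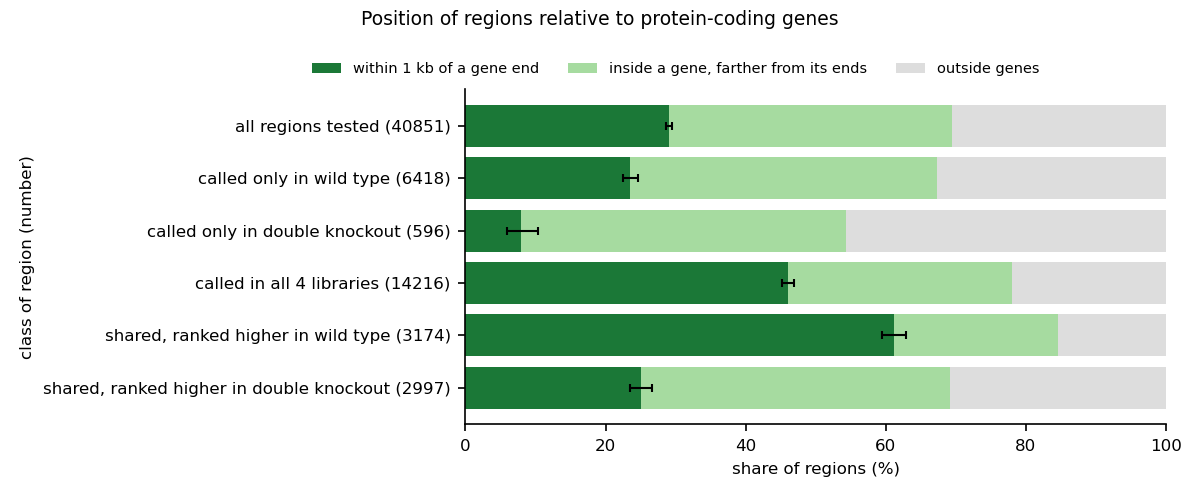
Share of regions (x axis) within 1 kb of an end of a protein-coding gene, farther inside a gene, or outside genes, for each class of region (rows, with their number). Error bars are 95% Wilson intervals of the first share; it runs from 7.89% for regions called only in double knockout to 61.2% for shared regions ranked higher in wild type.

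Calls in the single knockouts did not enter the rule for one-sided regions, but they follow the length of each list. The Cpt2 knockout libraries had 39296 and 35908 peaks and called 81.6% and 76.6% of all 40851 regions tested. The Ppara knockout libraries had 20340 and 18283 peaks and called 46.8% and 41.5%. Of the 6418 regions called only in wild type, 5134 (80.0%) were called in both Cpt2 knockout libraries and 216 (3.37%) in neither. In the Ppara knockout, 4468 (69.6%) were called in neither library and 518 (8.07%) in both. For comparison, the 1416 regions called in 1 wild type and 1 double knockout library were called in both Cpt2 knockout libraries in 61.3% and in neither Ppara knockout library in 59.7%. In equal-number lists 51.0% of the regions called only in wild type were called in both Cpt2 knockout libraries and 51.8% in neither Ppara knockout library. Regions called there in 1 library of each group had 29.9% and 36.7%. With all peaks, 188 of the 6418 regions (2.93%) were called in no single knockout library.

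**Figure D5:**
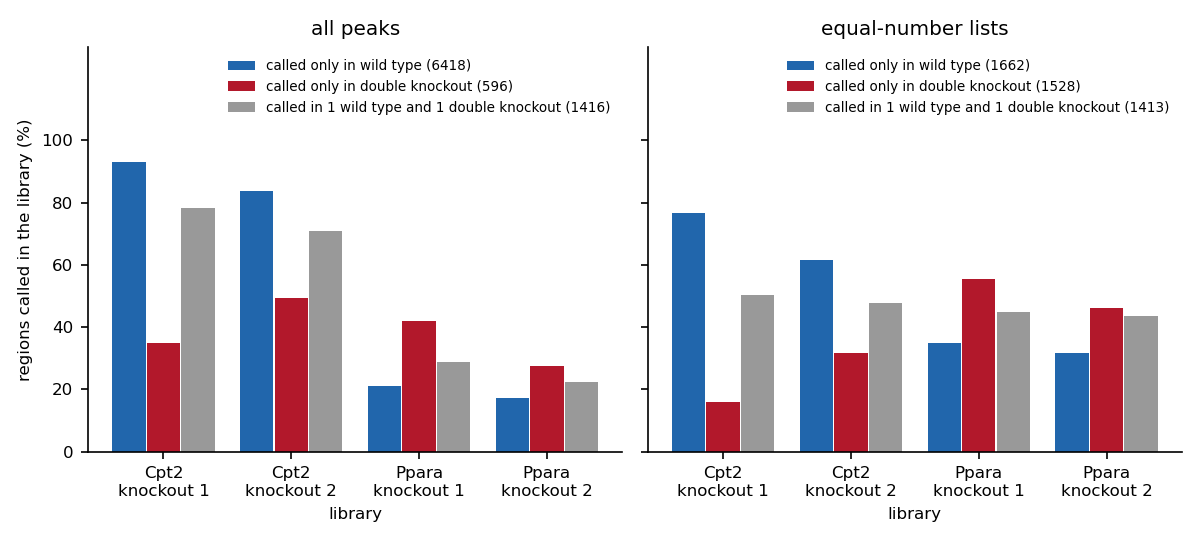
Percentage of regions called in each single knockout library (x axis), for regions called only in wild type (blue), only in double knockout (red) and in 1 library of each group (grey), with all peaks (left) and equal-number lists (right). Over all regions tested, Cpt2 knockout libraries called 81.6% and 76.6% and Ppara knockout libraries 46.8% and 41.5% with all peaks, so blue bars differ in the same direction as the lists as a whole; red regions were called in 34.9% and 49.5% of cases in Cpt2 knockout and 42.1% and 27.7% in Ppara knockout.

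The 596 regions called only in double knockout had mixed calls in the single knockouts. Both Ppara knockout libraries called 102 (17.1%) and neither called 282 (47.3%), while both Cpt2 knockout libraries called 133 (22.3%) and neither called 226 (37.9%). For the 1416 regions called in 1 library of each group, these 4 shares were 11.1%, 59.7%, 61.3% and 12.1%. No single knockout library called 123 of the 596 (20.6%), the one at Igfbp1 among these, beside 8.26% of the 1416. In equal-number lists 32.9% were called in both Ppara knockout libraries and 61.9% in neither Cpt2 knockout library, and Cpt2 knockout 1 and 2 called 15.9% and 31.6%. Regions called there in 1 library of each group had 25.2%, 31.9%, 50.3% and 47.7% in the same order. Regions called in all 8 libraries were also ranked among themselves, so that the median over all 11258 of them lies at the middle of the scale in every library. The 2665 such regions ranked higher in wild type had median percentiles of 59.4 and 60.0 in wild type, 55.0 and 50.6 in Cpt2 knockout, 43.4 and 45.0 in Ppara knockout and 30.6 and 28.7 in double knockout. The 2194 ranked higher in double knockout had 28.0 and 25.6, 34.0 and 38.6, 51.3 and 46.8, and 63.1 and 65.3 in the same order. The wild type and double knockout ranks were used in the choice and are given as a description. Libraries outside the choice lie closer to the middle of the scale by construction, so their place between the groups is no result.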

How the data were processed

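Each library's peaks were called by the authors with MACS2 2.1.0 on mm10, after alignment with BWA, per the submitters' processing notes. The deposited peak lists give a score, a fold enrichment, a −log10 p and a −log10 q per peak, and these are the authors' own values. Read counts were not used here, so depth is unknown. A deposited consensus table gave region positions on mm10.

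Members and gene lists were chosen with earlier results of these data known. Peaks were mapped to consensus regions by an overlap of at least 1 bp. Regions were assigned to the nearest of 21900 protein-coding genes of RefSeq GRCm38.p6, whose table has no strand or exons. All 340 list genes matched. Percentile ranks of −log10 p were taken within each library. The number of peaks had an exact permutation test (two-sided), and regions were compared by counts with no test. Named regions were, among those also one-sided in lists of 18132 peaks per library, the 12 of highest mean rank in each direction, the 8 largest rank differences in each direction, the highest ranked of each list, the genes with the most one-sided regions, and Cpt2 and Ppara. Some regions that this rule names are not reported here. Fabp1, Mogat1 and other single list genes were picked after their values were seen. Alternatives were equal-number lists, a −log10 q of at least 20, 50% cover, fold in place of −log10 p, 20 percentile points, 5 kb, a replicate block and leaving out each library. The counting rules were tested on simulated calls. Python 3.11.15, NumPy 2.4.6, SciPy 1.17.1, pandas 2.3.3 and matplotlib 3.10.9 were used.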

Additional observations from a re-analysis of the deposited data

How the results depend on the processing

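In equal-number lists the regions called only in wild type numbered 1662 in place of 6418 and those called only in double knockout 1528 in place of 596. These lists hold fewer peaks, and the same number in each library, so both counts come close together by construction. There, 25.6% and 15.5% of them lay near gene ends, the fatty acid and fasting lists had 12.8% only in wild type, and the shares called in the single knockouts were 51.8% (neither Ppara knockout) and 51.0% (both Cpt2 knockouts) for wild type regions, and 32.9% (both Ppara knockouts) and 61.9% (neither Cpt2 knockout) for double knockout regions. At a −log10 q of at least 20, 226 regions were called only in double knockout, and the cause was not tested. With 20 percentile points 2017 shared regions ranked higher in wild type. Within 5 kb the gene-end shares were 38.7% and 23.8%. Leaving out 1 library, which relaxes the rules by construction, gave 7410 to 14662 regions only in wild type, the most without wild type 1, and 752 to 2035 only in double knockout, the most without double knockout 2. It gave 4046 to 5147 shared regions higher in wild type and 3760 to 4871 higher in double knockout. The cover, fold and remaining settings kept each of these counts within 1.5 times, and none reversed a direction. Replicate numbers did not pair the libraries (correlation of deviations of -0.0386 over 14216 regions, 2 pairs). With a replicate block the shared counts were 3573 and 3305 and the difference in peaks -12013.5. No read depth limits could be given without counts.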
